A study of Gallus gallus with 12 samples.

Results

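On the chicken array, 30 of 43603 probes set the hypothalamus of birds in temperature recovery apart from the hypothalamus of birds in both other groups. The 30 probes were chosen by their measured values. A probe entered the set when its spot was well above background on each of the 12 arrays, when its 4 TR signals all lay above or all lay below the 8 HS and CL signals, and when the TR mean was at least 0.585 (log2) from both other means. Of the 32227 probes above background on all 12 arrays, 14 had TR above and 16 had TR below. Because the rule used TR vs. HS and TR vs. CL, the values of these 2 contrasts are given as a description, with calls only counted.

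The study took 12 female broilers of a full-sib and half-sib population, 56 d of age and reared at 25°C, and measured the hypothalamus RNA of each bird on 1 Agilent array. TR birds (temperature recovery, n = 4) spent 24 h at 34°C and the next 24 h at 25°C again. HS birds (heat stress, n = 4) were held at 34°C for 24 h and dissected at once. CL birds (control, n = 4) stayed at 25°C, and the study names their collection together with that of TR birds. Heat began at 56 d in both heated groups, so TR birds were dissected 24 h later than HS birds. Recovery and time of dissection thus cannot be told apart in TR vs. HS. Arrays are called TR1 to TR4, HS1 to HS4 and CL1 to CL4. Each group filled a slide of its own, so the effects of slide and group cannot be told apart. The CL slide was scanned on another day than the TR and HS slides.

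The deposited labels name hypothalamus in the titles and treatment text, but other fields of the same labels give spleen, male birds and infection with a virus. An array had 33505 to 36852 spots above background, with a median signal over background of 10.8 to 15.8. The W-linked gene HINTW, which females carry, had a log2 signal of at least 17.47 on every array at its brightest probe. Marker genes were summed on the linear scale and the sum was put in log2, so the brightest genes weigh most. For 10 astrocyte and tanycyte genes this sum was 19.69 to 20.08 in TR, 19.75 to 19.88 in HS and 19.52 to 19.79 in CL. For 13 lymphoid and spleen genes it was 18.21 to 18.35 in TR, 18.11 to 18.21 in HS and 18.26 to 18.42 in CL. CRH, which defines stress neurons of the hypothalamus, was above background on no array. It was the only such gene among the 12 hypothalamic neuropeptide genes with a named probe. Of these 12 genes, 6 were above background on all 12 arrays. The summed signal of striated muscle genes was 13.09 to 13.99 on the TR arrays and was highest on HS2, at 16.03, and CL2, at 17.57. In whole tissue, fewer cells of a type and less RNA per cell cannot be told apart.

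In birds, neurons of the hypothalamus read heat at the skin and in the brain and set panting, blood flow and heat production. Other hypothalamic neurons release peptides that act on pituitary hormones, appetite and the stress axis, and receptors such as those for somatostatin restrain hormone release. Return from heat to a mild temperature ends panting and lets feeding and metabolic heat production resume.

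A gene name could be given to 7 of the 30 probes (23.3%), against 26.8% of the probes above background on all 12 arrays. These were a neuropeptide (PRLH) and a peptide receptor (SSTR2), an integrin subunit (ITGA8), a detoxifying enzyme (GSTA4), a nuclear RNA (TERC), and a retrovirus-like gene (ENS-1) with a keratin (BKJ). TR was above HS and CL for PRLH, ITGA8, GSTA4, TERC and ENS-1 and below them for SSTR2 and BKJ. All values below are quantile-normalized log2 signals of 1 probe unless said otherwise, and a fold change (FC) is the difference of mean log2 signals put on the linear scale. A probe was called in a contrast at p under 0.05, FDR under 0.15 and FC over 1.5 in a limma fit of the 3 groups.

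**Figure D1:**
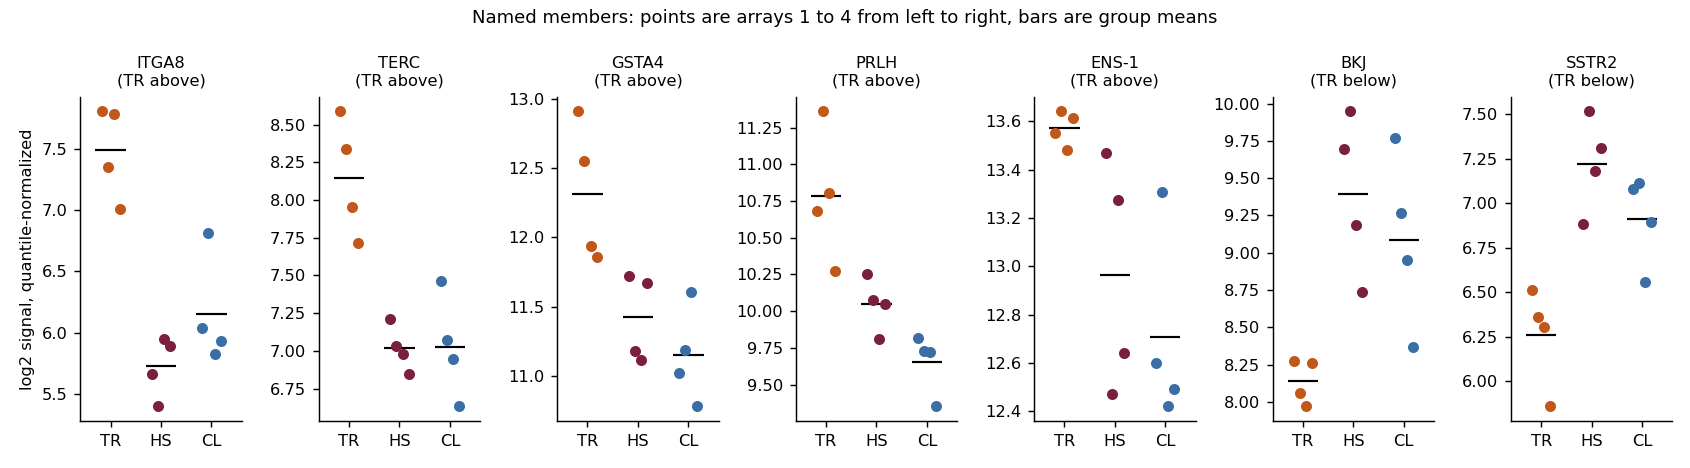
Log2 signal of the 7 named members on each array, with arrays 1 to 4 of each group from left to right and bars at the group means. In the first 5 panels the 4 TR points lie above all HS and CL points, by as little as 0.01 for ENS-1 and as much as 0.25 for TERC, and in the last 2 panels they lie below.

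PRLH encodes prolactin-releasing peptide, a neuropeptide of the RFamide family that in mammals acts on feeding and the stress axis. Its signal was 10.69, 11.36, 10.81 and 10.28 on TR1 to TR4, against 10.26, 10.08, 9.81 and 10.05 on HS1 to HS4 and 9.82, 9.73, 9.72 and 9.35 on CL1 to CL4. TR2 was the highest array and CL4 the lowest, and TR4 stood only 0.02 above HS1, so the TR and HS ranges nearly touched while TR and CL were well apart. The group means were 10.78 ± 0.45 in TR, 10.05 ± 0.18 in HS and 9.66 ± 0.21 in CL (SD, n = 4 each), an FC of 1.66 over HS and 2.18 over CL. HS exceeded CL by 0.39 (95% interval -0.05 to 0.83, limma adjusted p = 0.292), which did not pass the FDR limit of 0.15.

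Other hypothalamic peptides had widely spread signals. Of the 25 listed neuropeptide genes 12 had a named probe, and 6 of these were above background on all 12 arrays. For the 12, the linear sum in log2 was 11.79 to 16.99 in TR, 16.43 to 18.76 in HS and 10.57 to 17.69 in CL. For calls and medians, each listed gene was read at its brightest tested probe only. The 8 tested had a median of -1.17 in TR vs. HS and 0.476 in TR vs. CL, with 0 calls. In HS vs. CL the median was 1.49, with 3 called higher, beside 3.57% of all probes called in either direction. PRLH itself was not in that list, and the part of these peptide differences in the PRLH values was not tested. The receptor gene PRLHR, singled out after its values were seen, had 1 probe, which was above background on no array.

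SSTR2 encodes a somatostatin receptor, which couples to inhibitory G proteins and in the brain and pituitary damps the release of hormones and transmitters. The SSTR2 probe read 6.51, 6.36, 6.30 and 5.86 on TR1 to TR4, against 6.88, 7.52, 7.18 and 7.31 on HS1 to HS4 and 7.08, 7.11, 6.56 and 6.90 on CL1 to CL4. TR4 was the lowest array and HS2 the highest, and the nearest pair across groups was TR1 and CL3, 0.04 apart. On average SSTR2 was 6.26 ± 0.28 in TR, 7.22 ± 0.26 in HS and 6.91 ± 0.26 in CL (SD, n = 4 each), which is 1.95-fold lower in TR than in HS and 1.57-fold lower than in CL. The HS minus CL difference was 0.31 (95% interval -0.08 to 0.70, limma adjusted p = 0.349).

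The other SSTR2 probes gave no second measurement. Both were above background on 1 TR array and on no HS or CL array. Neuronal markers were looked at in the same samples. Of 23 listed neuronal and synaptic genes 11 had a probe, 9 of them above background on all 12 arrays and none below on all. For the 11, the linear sum in log2 was 13.89 to 14.33 in TR, 14.53 to 16.56 in HS and 13.95 to 14.65 in CL. Every TR array thus lay below every HS array, while TR and CL overlapped. The highest sums were those of HS3, at 15.71, and HS4, at 16.56. Of the 10 that were tested, 0 were called higher and 4 lower in TR vs. HS, beside 1.17% of all probes called lower. Their median difference was -2.01, against 0.04 over all probes. None was called in TR vs. CL, where the median was -0.38. In HS vs. CL their median was 1.74, with 3 called higher, beside 3.57% of all probes called in either direction. The part of the neuronal signal in the SSTR2 values was not tested. Among the other receptors of the family, singled out after their values were seen, SSTR3 differed by -0.30 from HS and -0.37 from CL without a call, SSTR1 was above background on no array and SSTR5 on 1.

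ITGA8 encodes the integrin alpha subunit that pairs with the beta-1 chain to bind proteins of the extracellular matrix such as nephronectin and fibronectin. It showed 7.80, 7.35, 7.78 and 7.01 on TR1 to TR4, against 5.66, 5.40, 5.95 and 5.89 on HS1 to HS4 and 6.03, 6.81, 5.83 and 5.93 on CL1 to CL4. The TR arrays were well above all others except CL2, the control array with the strongest muscle signal, which came within 0.19 of TR4. The ITGA8 probe was dim, at signal percentile 4.32 of the probes above background on all 12 arrays. Its lowest signal over background was 1.48. Leaving out an array cannot undo the non-overlap, and the distance of the ITGA8 means held with each of the 12 left out. Under 75th percentile scaling ITGA8 left the set. With means of 7.49 ± 0.38 in TR, 5.73 ± 0.25 in HS and 6.15 ± 0.45 in CL (SD, n = 4 each), the FC of ITGA8 was 3.38 over HS and 2.52 over CL. With normexp background correction TR minus HS was 1.09 and TR minus CL 0.82 (log2), against 1.76 and 1.33 without it. The direction is that of the single-colour signals given above. In the study the sign printed for ITGA8 in TR vs. CL is the opposite one, for the array and for qRT-PCR. The qRT-PCR value there carries no mark of significance. For HS vs. TR the study prints ITGA8 as lower in HS by both methods, the same direction as here. HS and CL differed by -0.43 (95% interval -0.95 to 0.10, limma adjusted p = 0.34).

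No other gene of the list that holds ITGA8 was called at its brightest tested probe, the only probe counted per gene. Of 36 genes listed for the extracellular matrix and integrins 23 were tested, and 1 was called higher and 0 lower in TR vs. HS and again in TR vs. CL, the 1 being ITGA8 itself, beside 0.687% of all probes called higher in TR vs. HS and 0.0458% in TR vs. CL. The median difference of the 23 was 0.02 in TR vs. HS and -0.12 in TR vs. CL, against 0.04 and -0.0044 over all probes tested. ITGB1, the partner chain, differed by -0.23 to -0.04 from HS and by -0.21 to -0.2 from CL over its 2 probes, with no call.

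GSTA4 encodes an alpha-class glutathione transferase, an enzyme that joins glutathione to reactive products of lipid peroxidation. Its member probe gave 12.91, 12.55, 11.94 and 11.86 on TR1 to TR4, against 11.72, 11.18, 11.12 and 11.67 on HS1 to HS4 and 11.02, 11.19, 11.61 and 10.78 on CL1 to CL4. TR1 and TR2 stood clear of every other array, whereas TR3 and TR4 were close to HS1 and HS4. The means were 12.31 ± 0.50 in TR, 11.42 ± 0.32 in HS and 11.15 ± 0.35 in CL (SD, n = 4 each), an FC of 1.86 over HS and 2.24 over CL, and HS vs. CL differed by 0.27 (95% interval -0.29 to 0.84, limma adjusted p = 0.581).

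Both other GSTA4 probes had a higher TR mean too, but without a call. A_87_P037870 was higher in TR by 0.83 (limma adjusted p = 0.201) than in HS and by 0.89 (adjusted p = 0.526) than in CL. A_87_P134778 was higher in TR by 0.57 (limma adjusted p = 0.385) than in HS and by 1.52 (adjusted p = 0.194) than in CL, and was called in HS vs. CL, where HS was higher by 0.94 (adjusted p = 0.128). On both of these probes the TR arrays overlapped with HS arrays. At A_87_P037870 they overlapped with CL too, with TR4 at 12.26 and CL3 at 12.37. GSTA2, another transferase of the class with 2 probes and singled out after its values were seen, differed by 0.04 to 0.27 from HS and by -0.14 to -0.09 from CL with no call. GSTA3, singled out likewise, was above background on 3 TR, 0 HS and 2 CL arrays and was not tested. Its probe read 5.18 to 6.13 in TR, 3.88 to 5.05 in HS and 3.18 to 5.64 in CL, so TR lay above HS and overlapped with CL.

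TERC is the RNA component of telomerase, which carries the template for telomere repeats. The TERC signal was 8.59, 8.34, 7.96 and 7.71 on TR1 to TR4, against 7.21, 7.03, 6.98 and 6.84 on HS1 to HS4 and 7.46, 7.07, 6.95 and 6.63 on CL1 to CL4. All TR arrays lay above all others, by 0.25 at the nearest, and in each group array 1 was the highest and array 4 the lowest. TERC averaged 8.15 ± 0.39 in TR, 7.02 ± 0.15 in HS and 7.03 ± 0.34 in CL (SD, n = 4 each), an FC of 2.19 over HS and 2.17 over CL. HS and CL were nearly equal, at a difference of -0.01 (95% interval -0.46 to 0.44, limma adjusted p = 0.985).

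The other telomerase genes on the array, singled out after their values were seen, were not called. DKC1, whose product dyskerin binds the telomerase RNA, differed by -0.01 to 0.27 from HS and by -0.04 to 0.01 from CL over 4 probes with no call. TERT, the catalytic subunit, had 26 probes, of which 16 were above background on no array and none was tested. The single TERC probe is thus the one reading of this enzyme's RNA.

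ENS-1 is a chicken gene known from embryonic stem cells that lies in a family of retrovirus-like repeats, so its probes can bind transcripts of several genomic copies. The member probe showed 13.55, 13.64, 13.48 and 13.61 on TR1 to TR4, against 13.47, 12.47, 13.27 and 12.64 on HS1 to HS4 and 12.60, 13.31, 12.42 and 12.49 on CL1 to CL4. The TR arrays were nearly equal, while HS and CL each split, with HS1, HS3 and CL2 close to TR and the other 5 arrays lower. Its means were 13.57 ± 0.07 in TR, 12.96 ± 0.48 in HS and 12.71 ± 0.41 in CL (SD, n = 4 each), an FC of 1.52 over HS and 1.82 over CL that was the closest to the limit of the rule among the members with TR above. HS vs. CL differed by 0.26 (95% interval -0.27 to 0.78, limma adjusted p = 0.574).

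The split between birds recurred on the other ENS-1 probes. HS1, HS3 and CL2 were the 3 highest HS and CL arrays on 4 of the 5 ENS-1 probes. At A_87_P135068 the TR arrays read 8.71 to 8.93 and HS1, HS3 and CL2 at least 8.62, while the other 5 arrays read 4.47 to 5.87. At A_87_P302148 the values were 8.74 to 9.22 in TR, at least 8.74 on HS1, HS3 and CL2, and 6.45 to 7.40 on the other 5. Thus 7 of the 12 arrays, of all 3 groups, carried the high signal at these probes, and TR differed in that all 4 of its arrays did. Over the 4 probes besides the member, TR exceeded HS by 0.37 to 1.65 (smallest limma adjusted p = 0.279) and CL by 0.72 to 3.15 (smallest adjusted p = 0.498), with no call.

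**Figure D2:**
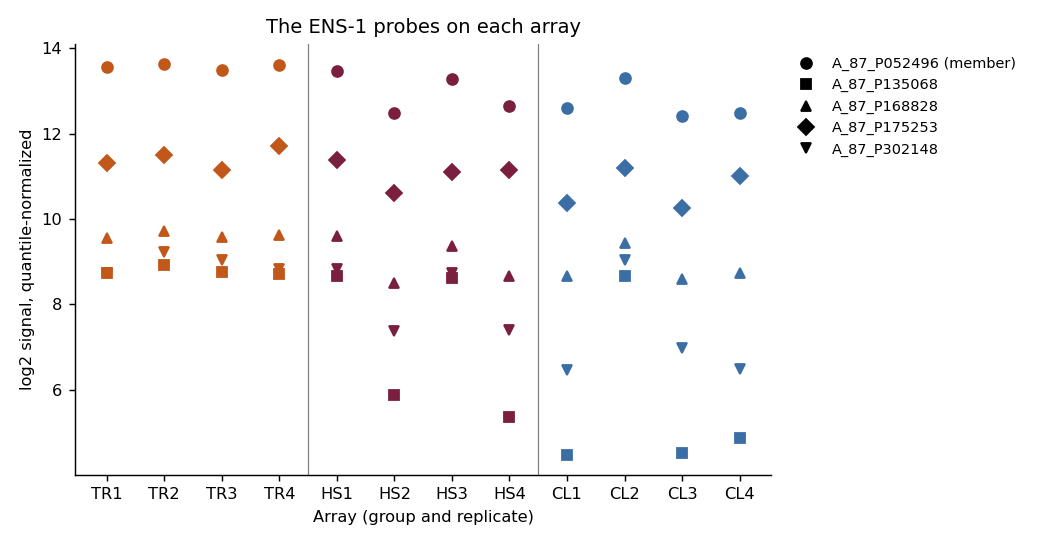
Log2 signal of the 5 ENS-1 probes on each array, by marker shape, with TR left, HS in the middle and CL right. At the probes drawn as squares and downward triangles, all 4 TR arrays, HS1, HS3 and CL2 sit high, and the other 5 arrays sit lower, between 4.47 and 7.40.

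BKJ encodes a beta-keratin, a protein of scales, claws and feathers that is not known as a product of brain cells. The BKJ member read 8.27, 8.06, 7.97 and 8.26 on TR1 to TR4, against 9.70, 9.95, 9.19 and 8.74 on HS1 to HS4 and 9.77, 9.26, 8.95 and 8.37 on CL1 to CL4. TR was low and even, and CL4 came within 0.09 of it. The means were 8.14 ± 0.15 in TR, 9.39 ± 0.54 in HS and 9.09 ± 0.58 in CL (SD, n = 4 each), 2.38-fold lower in TR than in HS and 1.93-fold lower than in CL. A second BKJ probe, A_87_P080117, was above background on all 12 arrays and did not share this difference, with TR at 0.12 (limma adjusted p = 0.697) from HS and -0.15 (adjusted p = 0.81) from CL.

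The 23 members without a gene name held both the widest differences and most of the set. The probes in the next sentences were singled out after their values were seen. A_87_P018245, designed to an Ensembl transcript, had the largest smaller distance of all members, at 9.60, 9.91, 10.25 and 9.70 on TR1 to TR4, against 8.62, 8.95, 8.71 and 6.78 on HS1 to HS4 and 6.87, 8.54, 9.09 and 7.80 on CL1 to CL4. HS4 was far below the other HS arrays, CL1 was the lowest array of a spread CL group, and the TR arrays lay at least 0.50 above all 8. FC was 3.03 over HS and 3.46 over CL. A second probe of that transcript, A_87_P021457, was higher in TR by 0.60 (limma adjusted p = 0.347) than in HS and by 0.84 (adjusted p = 0.559) than in CL. There HS4, the lowest HS array at the member probe, read 7.99 and was the highest of the 12 arrays, against 7.60 to 7.94 in TR, so TR and HS overlapped.

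A_87_P017951, also designed to an Ensembl transcript, was the other unnamed member with a second probe. Its FC was 2.01 over HS and 1.81 over CL. The second probe, A_87_P219923, read 7.29, 6.56, 7.48 and 7.22 on TR1 to TR4, against 5.79, 5.93, 6.30 and 6.11 on HS1 to HS4 and 6.40, 6.39, 6.02 and 6.60 on CL1 to CL4. TR was above HS on all arrays, by 1.11 (limma adjusted p = 0.0352, a call), whereas TR2 was lower than CL4 and the difference of 0.79 from CL was no call (adjusted p = 0.343).

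A_87_P301643 had the largest FC over HS of all members, 4.11, with 7.46, 8.16, 7.65 and 7.76 on TR1 to TR4, against 5.30, 5.42, 5.93 and 6.23 on HS1 to HS4 and 6.94, 6.10, 7.21 and 5.93 on CL1 to CL4. CL1 and CL3 were between TR and the rest, and the FC over CL was 2.31. The probe was dim, at signal percentile 6.48, with a lowest signal over background of 1.32. A_87_P009236 read 8.67 on TR3 and 6.46 to 6.72 on the other TR arrays, against 5.32 to 6.12 in HS and 5.71 to 6.01 in CL. Its TR mean was 7.08 ± 1.07 (SD, n = 4), and its signal percentile was 2.83, with a lowest signal over background of 1.35. TR3 was far above the other TR arrays, yet these also lay above all HS and CL arrays. Leaving out an array cannot undo the non-overlap, and the distance of means held with each of the 12 left out.

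Among members with TR below, A_87_P301660 was farthest from both other groups. It read 10.95, 10.86, 10.72 and 10.69 on TR1 to TR4, against 12.69, 12.26, 11.85 and 11.58 on HS1 to HS4 and 12.40, 12.54, 12.03 and 11.49 on CL1 to CL4. TR was 0.54 below the nearest array, CL4, and 2.45-fold lower than HS and 2.48-fold lower than CL on average. A_87_P106003 showed the largest decrease against HS, 2.77-fold, but TR1 was 0.01 below CL4 (9.71 to 10.10 in TR, 11.11 to 11.51 in HS, 10.11 to 11.48 in CL).

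**Figure D3:**
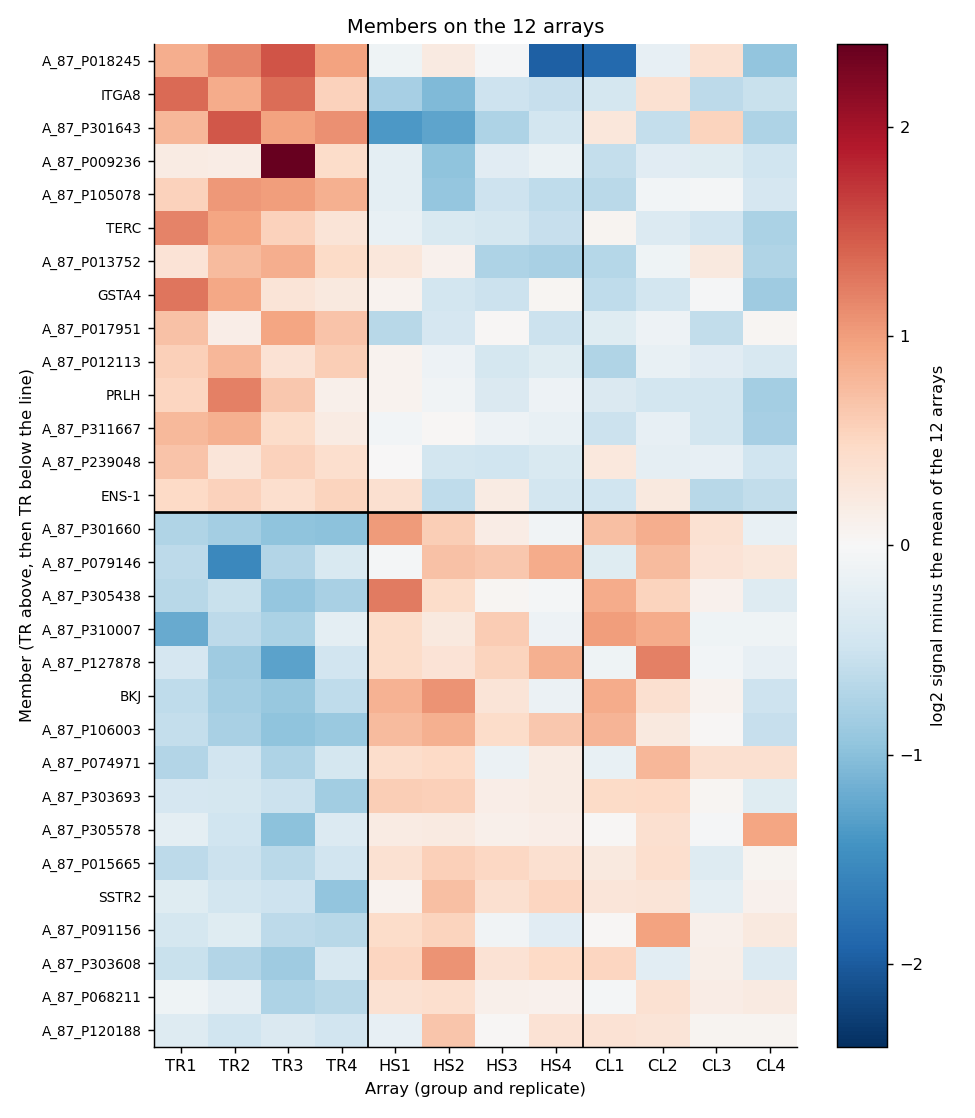
The 30 members (rows, TR above over the black line and TR below under it) on the 12 arrays (columns), coloured by log2 signal minus the mean over the 12 arrays. The 4 TR columns share one colour in each block by the rule, at A_87_P009236 TR3 stands far above the other TR arrays, and CL4 is the pale column nearest to TR in 7 of the 16 lower rows.

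Over all members with TR above, FC ran from 1.52 to 4.11 over HS and from 1.56 to 3.46 over CL. The 16 members with TR below were lower by 1.52-fold to 2.77-fold than HS and by 1.52-fold to 2.48-fold than CL. The gap between the TR arrays and the nearest other array was under 0.1 for 11 of the 30 and at most 0.59, for A_87_P105078, which read 8.13 to 8.62 in TR, 6.65 to 7.35 in HS and 6.94 to 7.54 in CL. CL4 was that nearest array for 8 members, 7 of them with TR below, HS1 and CL3 for 6 each, CL1 for 5, HS4 for 3, HS2 and CL2 for 1 each and HS3 for none. TR3 was the most extreme TR array for 13 members, TR2 for 8, TR1 for 5 and TR4 for 4.

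The members just inside the limit were ENS-1 (smaller distance 0.61), A_87_P239048 (0.64) and A_87_P311667 (0.65) with TR above and A_87_P120188 (0.60), A_87_P068211 (0.61) and A_87_P303608 (0.64) with TR below. Just outside were A_87_P066356 (0.58), A_87_P019756 (0.56) and A_87_P015056 (0.51) above and A_87_P002000 (0.57), A_87_P016873 (0.56) and A_87_P028693 (0.56) below. Without any limit on the means, 197 probes (0.611%) had all TR arrays above and 145 (0.45%) had all TR arrays below the other 8. The same rule applied to HS gave 204 probes (153 above, 51 below) and applied to CL gave 41 (20 above, 21 below), with the HS count the highest and the TR count the lowest.

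**Figure D4:**
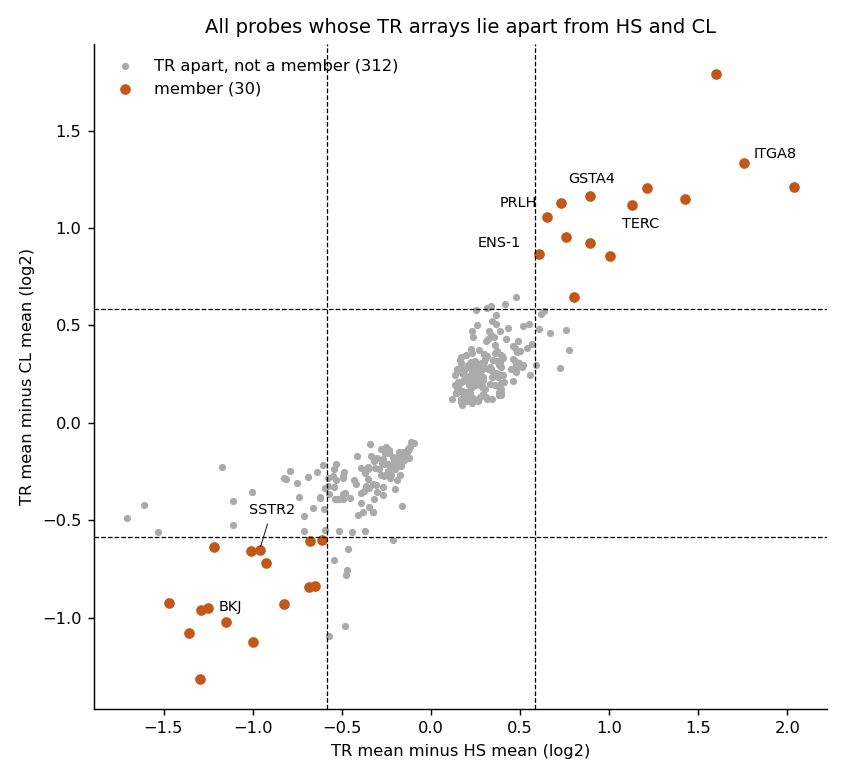
TR mean minus HS mean (horizontal) and TR mean minus CL mean (vertical), in log2, for the 342 probes whose TR arrays do not overlap with HS and CL arrays, with dashed lines at the limit of 0.585. The 30 members lie beyond both lines, and the other probes fall short of at least 1 of the lines.

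The counts of calls follow the limits given above. In TR vs. HS, 10 of the 14 members with TR above were called, beside 0.687% of all probes called higher in TR, and 14 of the 16 with TR below, beside 1.17% called lower. In TR vs. CL, 6 of the 14 were called, beside 0.0458% higher, and 0 of the 16, beside 0.0487% lower. All 30 had an unadjusted limma p under 0.05 in both contrasts. With no FDR limit all 30 were called in both, beside 4.1% of all probes in TR vs. HS and 1.38% in TR vs. CL. The methods' t-test with the same limits called 16 in TR vs. HS, beside 0.733% of all probes. In TR vs. CL it called 0, beside 0.00286% (1 of 34919). The rule chose the members on these contrasts, which also share the TR arrays, so nothing is read from the counts. The 6 called in both were ITGA8, TERC, PRLH, A_87_P105078, A_87_P012113 and A_87_P311667, all with TR above. GSTA4, BKJ and SSTR2 were called in TR vs. HS only, and ENS-1 was among the 6 called in neither. The TR vs. HS count was 15 without TR2 and 15 without TR3. The TR vs. CL count was 0 without TR3, 1 without TR1, 2 without TR4, HS3 or CL2, and 3 without TR2, HS1, HS2 or CL1. Over all probes these TR vs. CL fits called 0% to 0.106%. Of 25 alternatives, 18 lost the TR vs. CL call of ITGA8, 17 that of TERC and 16 that of PRLH.

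The rule did not use the HS vs. CL difference itself, though it keeps HS and CL on one side of TR. Of the 30 members 0 were called by limma, beside 3.57% of all probes, which is near that background. At an unadjusted p under 0.05 there were 5 members with limma and 2 with the methods' test named above. That test called 0 members as well, beside 1.18% of all probes. The share of all probes under the unadjusted limit was not taken, so the 5 and the 2 are not read against a background. The smallest adjusted p was 0.1501, just above the limit, for A_87_P303608, which was 11.79 ± 0.32 in HS and 11.21 ± 0.39 in CL (SD, n = 4 each), a difference of 0.58. A_87_P301643 was next, lower in HS by 0.83 (95% interval -1.50 to -0.16, limma adjusted p = 0.159). HS was above CL in 18 of 30 members. Without CL1 2 members were called, beside 4.04% of all probes, and without CL4 1 was, beside 2.99%.

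A missed threshold does not show that HS and CL were equal in these members. The 95% interval of HS minus CL included 0 for 25 of the 30 but lay wholly within a 1.5-fold change in either direction for 7. An HS difference of 1.5-fold or more was thus outside the interval for 7 members, and for the other 23 it was within the interval. The number of arrays limits this precision.

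**Figure D5:**
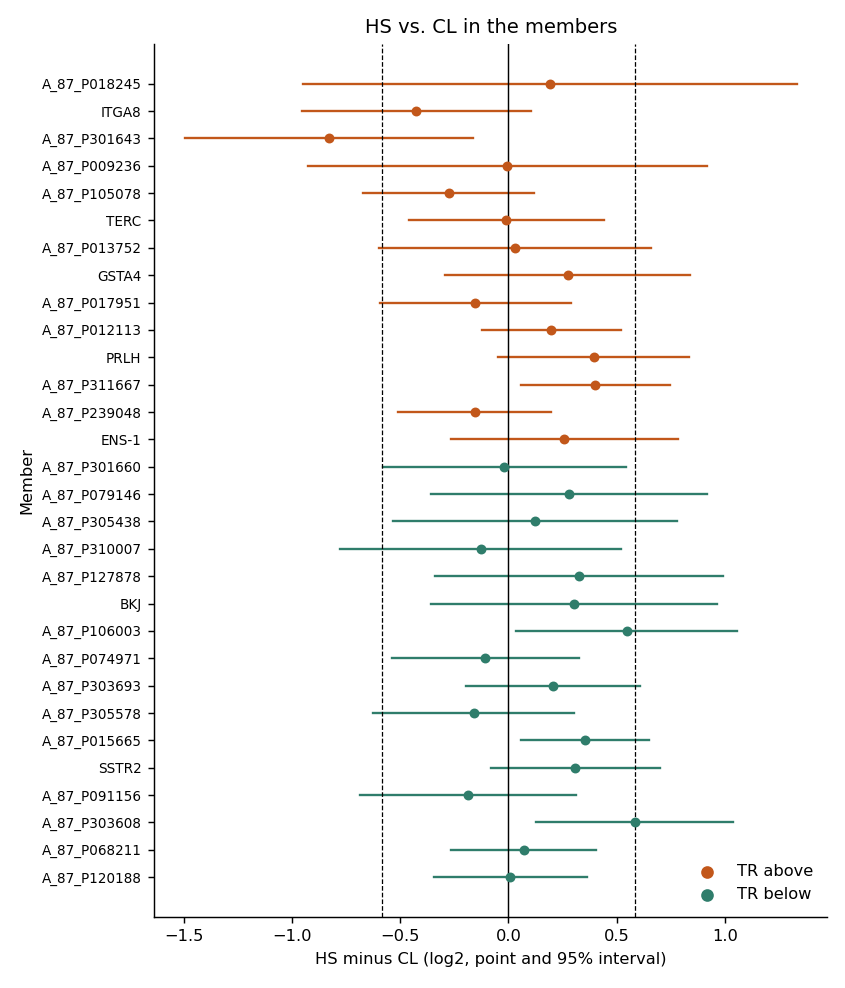
HS minus CL (log2) for each member, as the limma estimate with its 95% interval, orange for TR above and teal for TR below, with dashed lines at a 1.5-fold change. Of the 30 intervals 25 include 0 and 7 stay inside both dashed lines.

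Signal level and design accession were looked at after the values were seen. The members were mostly dim, with a median percentile of 30.11 among the probes above background on all 12 arrays (22.37 with TR above, 39.26 with TR below), and 9 of 30 were brighter than the median probe. The dimmest was at percentile 0.89 and the brightest, ENS-1, at 86.42. An accession of the letters NP followed by a number, which the reference table does not name, was carried by 7 members (23.3%), against 437 of the 32227 probes above background (1.36%). Such accessions were 3.43% of the 204 probes chosen by the same rule for HS, 4.88% of the 41 for CL and 5.56% of the 342 that passed with no limit on the means. The median SD within groups was 0.335 for the members, 0.24 for all NP probes above background and 0.198 for all probes. No test was made of these shares.

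The place of an array on its slide equals its replicate number and was set beside the signals of the members. In a limma fit with group and place as terms, chosen after the values were seen, place was called for 0 of 30 members, beside 0.00859% of all probes (3 of 34913). At an unadjusted p under 0.05 it was 7 members (23.3%), beside 8.2% of all probes, with the smallest adjusted p among members at 0.456. The 7 were TERC, A_87_P311667, A_87_P239048, A_87_P301660, A_87_P305438, A_87_P303693 and A_87_P091156. The mean at place 1 was above that at place 4 for 20 of 30 members (66.7%), beside 52.8% of the probes above background on all 12 arrays. Array 1 was above array 4 in all 3 groups for 10 members (33.3%), beside 13% of those probes. At TERC the mean over the groups was 7.76 at place 1 and 7.06 at place 4. The part of the place in the choice of members was not tested.

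The 22 gene lists, of cell types, heat shock, clock, hormone and other pathways, held 1 of the 7 named members, ITGA8. Members without a gene name could not be looked up in the lists. Over all lists 7 genes were called in TR vs. HS, 4 of them among the 10 tested neuronal and synaptic genes. In TR vs. CL 1 was called, ITGA8 itself, among the 23 tested genes of its list. Over all probes 1.85% and 0.0945% were called. No share over the lists was taken, so the counts are not read against these percentages. List medians ran from -2.01 to 0.186 in TR vs. HS and from -1.70 to 0.476 in TR vs. CL. The lowest in TR vs. CL was that of 10 tested striated muscle genes, at -1.697. These genes had a median of -1.699 in TR vs. HS and 0 calls in either contrast. The sum over the 13 muscle genes on the array was 16.03 on HS2 and 17.57 on CL2. The other HS arrays were at 13.332 to 13.616 and the other CL arrays at 13.595 to 13.765, within the TR range of 13.09 to 13.99. No named member was a heat shock or chaperone gene. The 18 tested of that list, each read at its brightest tested probe only, had 0 calls in either contrast. Their medians were -0.0021 in TR vs. HS and 0.0087 in TR vs. CL. Other probes of these genes were not counted, so a change at such a probe is not covered. The 12 clock genes tested likewise had 0 calls, with medians of 0.0356 and 0.0972.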

How the data were processed

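Hypothalamus RNA of 12 birds was labelled with cyanine 3 and hybridized to 1 array each. The authors extracted spots with Feature Extraction 10.7.3.1 and deposited the processed intensity of each spot, background-subtracted and detrended and not scaled between arrays, with its marks. They also deposited a log2 table whose scale matched the quantile-normalized log2 intensities: array medians were all 8.80, and all but 21 of 43606 entries agreed, at a root mean square under 0.1, with a feature at most 12 places away, so it was used by that match only. Here processed intensities of 43803 spots were taken to log2, quantile-normalized and averaged per probe. Fits used limma 3.58.1 in R 4.3.3 on the 34929 probes that every array of some group showed above background, with 420 outlier values left out and Benjamini-Hochberg adjustment over all. The limits are those of the methods. The fit and the rule were tested on simulated data.

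Names came from accessions matched to RefSeq on GRCg7b, for 10185 of 43603 probes. The array was designed on another build, so no positions are given, and sequences were not used here. In each direction the first 12 named members by the smaller distance, those near the limit and other probes of member genes were named, and other genes were singled out later. Members and lists were chosen with earlier results of these data known. Replicates are separate birds. Numbers did not pair birds (correlations -0.148 to 0.335). Alternatives were other scaling, background correction, filters, limits, outlier spots, the deposited table, array weights, only 2 groups, a replicate block, the methods' t-test (named there for qRT-PCR) and each array left out. A fit without HS2 and CL2 and the test of array place were chosen after seeing the data.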

Additional observations from a re-analysis of the deposited data

Results flagged for a closer look

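Of 90 sets of 4 arrays (30 members in 3 groups), 4 had 1 array whose gap to the next, divided by the range of the 4, was above Dixon's limit, where chance flags about 1 in 20. For A_87_P009236, TR3 was at 8.67 with the next TR array at 6.72 (ratio 0.884), and HS2 was at 5.32 with the next HS array at 6.01 (ratio 0.858). For A_87_P018245, HS4 was at 6.78 with the next HS array at 8.62 (ratio 0.85). For A_87_P127878, CL2 was at 10.85 with the next CL array at 9.57 (ratio 0.91). None of these probes has a gene name.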

How the results depend on the processing

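The rule chose 30 probes, and 21 to 37 under 75th percentile scaling (37, with 26 of the 30 kept), normexp (21, with 20 kept), the deposited table and outlier spots left out (30 each, all kept). It chose 51 when the background demand held in 1 group only, 102 with none, 9 at a distance of 1, 342 with no distance and 53 without HS2 and CL2. Leaving out 1 array, which makes the rule easier to meet, gave 30 to 65 probes, with 65, 53 and 52 without TR2, TR1 and TR4, and kept 26 to 30 of the 30. PRLH left the set under 75th percentile scaling and normexp, ITGA8 under 75th percentile scaling and SSTR2 under normexp.

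Of the 24 members called in TR vs. HS, 9 passed an FDR under 0.05, beside 0.452% of all probes. Leaving out 1 array gave 15 to 25, beside 0.727% to 3.42%. The 6 in TR vs. CL became 30 with no FDR limit (1.38% of all probes), 3 with no filter (0.0734%) and 3 without HS2 and CL2 (0.0458%). They became 0 at an FDR under 0.05 (0%), with only the 2 groups (0.0286%) or by the methods' t-test (0.00286%). Leaving out 1 array gave 0 to 5, beside 0% to 0.12% of all probes. The 0 in HS vs. CL became 1 with no FDR limit (5.25% of all probes) and 1 with array weights (4.05%). It became 0 to 2 with 1 array left out, beside 1.4% to 5.31%. With the replicate block, 23 members were called in TR vs. HS, beside 1.49% of all probes, and 0 in HS vs. CL, beside 3.56%. In TR vs. CL the block fit called 4, beside 0.0573%, 2 of them with TR below. Neither ITGA8 (limma adjusted p = 0.251) nor PRLH (adjusted p = 0.18) was among the 4. Of the 12 arrays, 3 correlated best with their own number. No named member changed direction in a call, and the TR vs. HS call was lost in 15 of 25 alternatives for GSTA4, 12 for PRLH and 8 for BKJ, and the TR vs. CL call in 18 for ITGA8, 17 for TERC and 16 for PRLH. Each group has 4 arrays on 1 slide. Members at a low percentile of signal, ITGA8, SSTR2, A_87_P301643 and A_87_P009236 among them, are measured close to background.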
